A study of Aspergillus nidulans with 4 samples.

Results

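The sterol and sphingolipid biosynthesis genes of *Aspergillus nidulans*, a filamentous fungus, were compared between the Δ*pkaA* strain and the WT by RNA-seq. Members were chosen by the function text that accompanies each gene in the authors' table. That text had to contain sterol, squalene, mevalonate, lanosterol, sphingolipid, sphingosine or ceramide and no mention of P450. The rule took 69 of the 10930 genes listed and used no expression value. A mean above 0 was listed for 68 of them, and the average of the strain means was at least 10 for 66.

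The Δ*pkaA* strain (FGSC A1358) lacks PkaA, a catalytic subunit of cAMP-dependent protein kinase (PKA), the kinase that relays nutrient signals through cyclic AMP. Its isogenic parent (FGSC A1405) served as the WT. Mycelium of both strains was grown in liquid YGV (rich medium, 2% glucose and 0.5% yeast extract). The main culture was shaken at 250 rpm and 28°C for about 20 h. Each strain had 2 samples, 4 in all, described as biological replicates. Each group is a single strain, so a difference may belong to these strains and not only to the deleted gene, which was not tested. Mycelium here means the whole harvest of a flask, and fewer cells of a kind or less RNA per cell cannot be told apart.

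Ergosterol is the main sterol of fungal membranes. Its carbon comes from acetyl-CoA through the mevalonate pathway, in which HMG-CoA reductase makes mevalonate. Farnesyl diphosphate units are joined to squalene, which is oxidised and cyclised to lanosterol, and lanosterol is demethylated, reduced and methylated to ergosterol. Azole antifungals block the sterol 14-demethylase step. Sphingolipids start from serine and palmitoyl-CoA. The long-chain base is acylated to ceramide, and ceramide receives either an inositol phosphate head group or a glucose. Sterols and sphingolipids gather together in domains of the plasma membrane. *A. nidulans* carries several genes for some of these steps.

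The values were mean normalised counts, that is, reads on a gene divided by a size factor for each library and averaged over the libraries of a strain. Ratios divide the Δ*pkaA* mean by the WT mean, and log2 ratios are negative where the Δ*pkaA* strain was lower. Because the means are built from whole reads, the reads of each library could be read back from them, up to a mean of 2252.5 in the Δ*pkaA* strain against 5914 in the WT. Where several divisions of the reads fitted a mean in this range, the most even was taken. The libraries are called a and b within a strain, since nothing ties them to a numbered sample. A gene was called when limma gave a Benjamini-Hochberg adjusted p below 0.01 and the strains differed at least 2-fold. For 36 members outside the range of recovered reads, a call also had to hold both with the most even and with the most uneven division of the reads between libraries, within 1.5-fold. The deposited means summed to 29312151 in the Δ*pkaA* strain against 31012501 in the WT. The transcript of the deleted gene (AN6305) was at 77.5 and 70.2 normalised counts in the Δ*pkaA* libraries against 1811 and 1927 in those of the WT, which matched the labels.

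Most sterol and sphingolipid genes differed less than 2-fold between the strains. The means lay at least 2-fold apart for 13 of 68 members, 5 with the higher mean in the Δ*pkaA* strain and 8 with the lower. Over all 10545 genes with a mean above 0, 35.4% were past 2-fold, 17.5% higher and 17.8% lower. Among members the share was 19.1%. Low genes pass such a limit more easily, so well-expressed genes were also compared. With an average of at least 1000, 10 of 56 members (17.9%) and 23.1% of 5123 genes were past 2-fold, in all genes 10.7% higher and 12.4% lower. The median log2 ratio of these 56 members was 0.12, against -0.02 for all genes of that expression. When the means were rescaled to the same sum in both strains, which shifts every log2 ratio by 0.08, the split of 5 higher and 8 lower members became 8 and 8. The genes added were AN4094, AN4991 and AN9275.

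**Figure D1:**
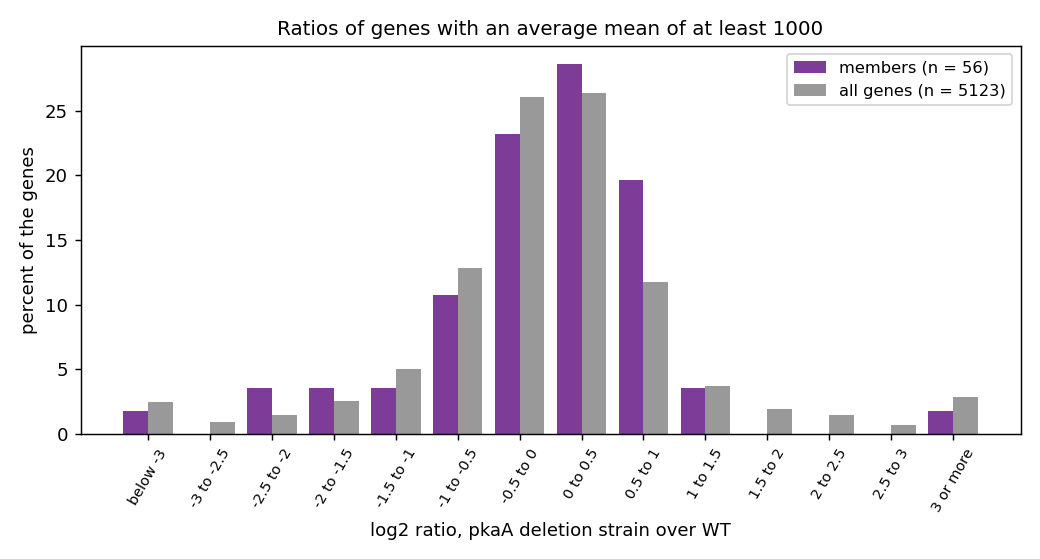
Percent of genes (vertical axis) in bins of the log2 ratio, Δ*pkaA* over WT (horizontal axis), for genes with an average of the strain means of at least 1000. Purple bars are the 56 members and grey bars all 5123 genes, and the middle of both distributions lies close to 0, with a median of 0.12 and -0.02.

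By limma, 12 of 66 tested members (18.2%) were called, 4 higher and 8 lower. Of all 9455 genes tested in the same way, 29.2% were called, 14.8% higher and 14.4% lower. Among the 30 members whose reads were recovered in all 4 libraries, 6 were called, 1 higher and 5 lower, where 31.9% of 6548 genes were called, 15.3% higher and 16.6% lower. The range of recovered reads ends at a lower mean in the Δ*pkaA* strain than in the WT, so that set holds more of the genes that are low in the Δ*pkaA* strain. Outside it, 6 of 36 members were called, beside 24.1% of 2907 genes, with 14.1% called higher and 10.1% lower. Libraries of the strains did not overlap for 83.9% of the 6548 genes, so a lack of overlap is common and was not used as a call. As the plot of all members by role shows, called members occurred in the mevalonate arm, in the later sterol steps, in sterol modification and in sphingolipid synthesis. Outside these roles, the siderophore gene AN10764 was called higher and AN5217 lower.

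**Figure D2:**
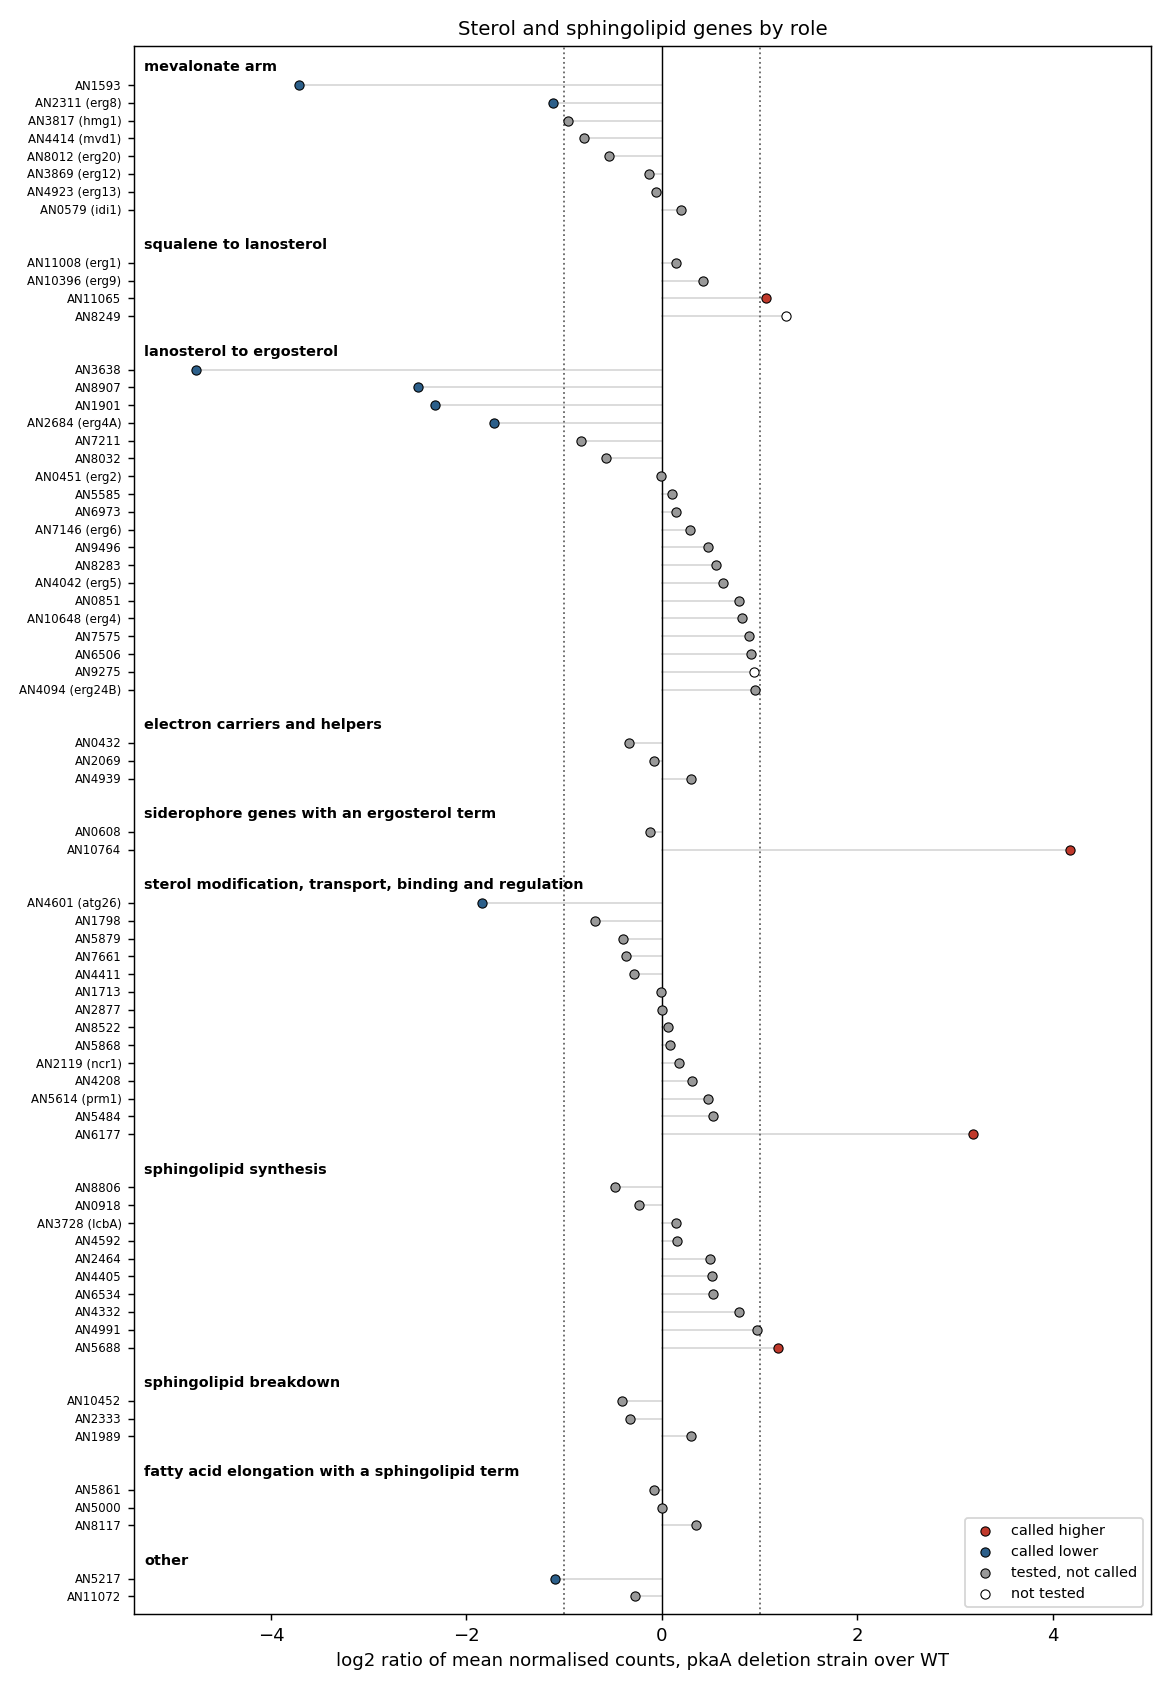
Log2 ratio of the mean normalised counts, Δ*pkaA* over WT (horizontal axis) for the 68 members with a mean above 0, 1 point per gene, grouped by role. Dotted lines mark 2-fold, red points were called higher (4), blue points called lower (8), grey points were tested and not called, and white points were not tested (AN8249 and AN9275).

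In the mevalonate arm, 7 of 8 genes had a log2 ratio below 0, with a median of -0.67, and 2 were called lower. Of all genes, 50.4% had a log2 ratio below 0 and 14.4% were called lower. With the same sum of means in both strains, 6 of the 8 were below 0. At an unadjusted p below 0.05 in limma, 5 of the 8 were lower and 0 higher with either division of reads. Of all genes, 34.3% were lower at that limit with the even and 30.7% with the uneven division. AN2311 (*erg8*), for phosphomevalonate kinase, had a mean of 4076 in the Δ*pkaA* strain against 8826 in the WT and was 2.17-fold lower. Its adjusted p was 2.76e-05 with the even and 0.00116 with the uneven division of reads in limma. The main HMG-CoA reductase gene, AN3817 (*hmg1*), had means of 5063 and 9835, a log2 ratio of -0.96, and stayed just inside the 2-fold limit. AN4414 (*mvd1*), for the decarboxylase that yields isopentenyl diphosphate, had means of 3088 and 5381 and a log2 ratio of -0.80. Its WT libraries stood at 4571 and 6190, both above the mean of the Δ*pkaA* strain. For AN8012 (*erg20*), the farnesyl diphosphate synthase by its yeast name, the log2 ratio was -0.54. HMG-CoA synthase (AN4923, *erg13*), mevalonate kinase (AN3869, *erg12*) and isopentenyl diphosphate isomerase (AN0579, *idi1*) lay between -0.13 and 0.19.

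The other HMG-CoA reductase gene, AN1593, was close to silent in the Δ*pkaA* strain. Its libraries held 3 and 1 reads there, against 25 and 27 in the WT. The WT exceeded the Δ*pkaA* strain 13.1-fold in the means, with an exact binomial 95% interval of 4.78 to 49.4 that covers counting error only. In limma, on log2(value + 1), the difference was -3.26 (SE 0.49, n = 2 and 2, adjusted p = 0.00112). With a pseudocount of 10 in place of 1 it was -1.59, still called, so its size rests on the pseudocount. AN1593 contributed little to the reductase transcripts, since per kb of gene span it gave 0.922% of the summed level of both reductase genes in the WT and 0.137% in the Δ*pkaA* strain. Summed per kb, the reductase genes were 1.96-fold lower in the Δ*pkaA* strain.

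AN1593 is listed from base 1282755 to base 1284115 on the plus strand. A RefSeq gene table of assembly ASM1142v1 places it on chromosome VII, in a row of genes that includes a putative geranylgeranyl diphosphate synthase (AN1592) and a protein with homology to ent-kaurene synthases (AN1594), the enzymes of diterpene synthesis. The neighbours did not all share 1 direction. AN1596 to AN1599 were lower in the Δ*pkaA* strain, like AN1593, while AN1590 and AN1591 were higher. Their values are strain means, Δ*pkaA* first, and are given as a description. The short-chain dehydrogenase gene AN1596 had means of 24.3 and 296, AN1597 of unknown function 20.4 and 208, and the P450 gene AN1598 102 and 480.1. AN1592 and AN1594 stood at a mean of at most 4.41 in either strain. AN1595 had 6.98 and 5.9955, and AN1599 2467 and 3585. On the other side, AN1591 had means of 297 and 36.8 and AN1590 had 217 and 43.4. Further out, AN1589 had 114 and 178, and AN1600 had 54.9 and 95.2.

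The 4 genes from squalene to lanosterol all had log2 ratios above 0, and 1 of the 3 tested was called higher. Of all genes, 49.6% had a log2 ratio above 0 and 14.8% were called higher. AN11065, an oxidosqualene-lanosterol cyclase that closes the sterol ring system, had a mean of 2729 in the Δ*pkaA* strain. Its WT libraries stood at 1218 and 1396, both below that mean. The cyclase was 2.09-fold higher, with a log2 ratio of 1.06 and an adjusted p of 1.95e-04 to 4.35e-04 in limma over the divisions of reads. The other cyclase gene, AN8249, held 17 reads in the Δ*pkaA* strain against 7 in the WT, a ratio of 2.41 with a 95% interval of 0.958 to 6.94, so no difference was detectable at this depth. Squalene synthase (AN10396, *erg9*) had means of 10661 and 7965, a ratio of 1.34. Squalene monooxygenase (AN11008, *erg1*), the target of terbinafine, had libraries of 1594 and 1659 in the Δ*pkaA* strain against 1554 and 1399 in the WT. It was not called, with a log2 fold change of 0.14 (SE 0.11, adjusted p = 0.279 in limma).

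The steps from lanosterol to ergosterol held 4 of the 8 members called lower. Of 20 genes, AN9218, a putative sterol 14-demethylase, was listed at 0 in both strains, and AN9275, a putative C-4 sterol methyl oxidase, held 2 reads in the Δ*pkaA* strain against 1 in the WT. Among the 18 tested, 4 were called lower and 0 higher in limma, where 14.4% and 14.8% of all genes were called. At an unadjusted p below 0.05 in limma, 9 of them were higher with the even and 7 with the uneven division of reads, and 6 lower with either. Of all genes, 34.9% were higher and 34.3% lower at that limit with the even division, and 31.1% and 30.7% with the uneven, so 6 of 18 lower is close to the share of all genes. No gene of these steps was past 2-fold higher, although 12 of the 19 with a mean above 0 had a log2 ratio above 0.

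AN3638 was the member with the lowest ratio. It encodes a putative C-4 sterol methyl oxidase, which oxidises the methyl groups at C-4 of the sterol ring, and is listed from base 3524253 to base 3525739 on the plus strand, on chromosome II in the RefSeq table. Its normalised counts were 197 and 185 in the Δ*pkaA* libraries against 5667 and 4740.5 in those of the WT. The strains did not overlap, and the spread between the WT libraries was far smaller than the distance between strains. The log2 fold change was -4.75 (SE 0.12, adjusted p = 1.70e-06 in limma, n = 2 and 2), which is 27.2-fold lower in the means.

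A further putative C-4 sterol methyl oxidase, AN8907, had 488 and 473 normalised counts in the Δ*pkaA* strain against 2597 and 2821 in the WT. Its libraries within a strain lay close together and the strains were apart, with a log2 fold change of -2.49 (SE 0.10, adjusted p = 5.82e-06 in limma). AN1901, a putative sterol 14 alpha-demethylase listed from base 2192886 to base 2195010 and on chromosome VII, had 732 and 861 against 4033 and 3946. The demethylase was 5.01-fold lower, with a log2 fold change of -2.33 (SE 0.12, adjusted p = 9.44e-06 in limma). AN2684 (*erg4A*), an oxidoreductase with a predicted role in sterol metabolism, had 1182 and 1277 against 4205 and 3880.5. It too showed no overlap, at a log2 fold change of -1.72 (SE 0.11, adjusted p = 2.27e-05 in limma).

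**Figure D3:**
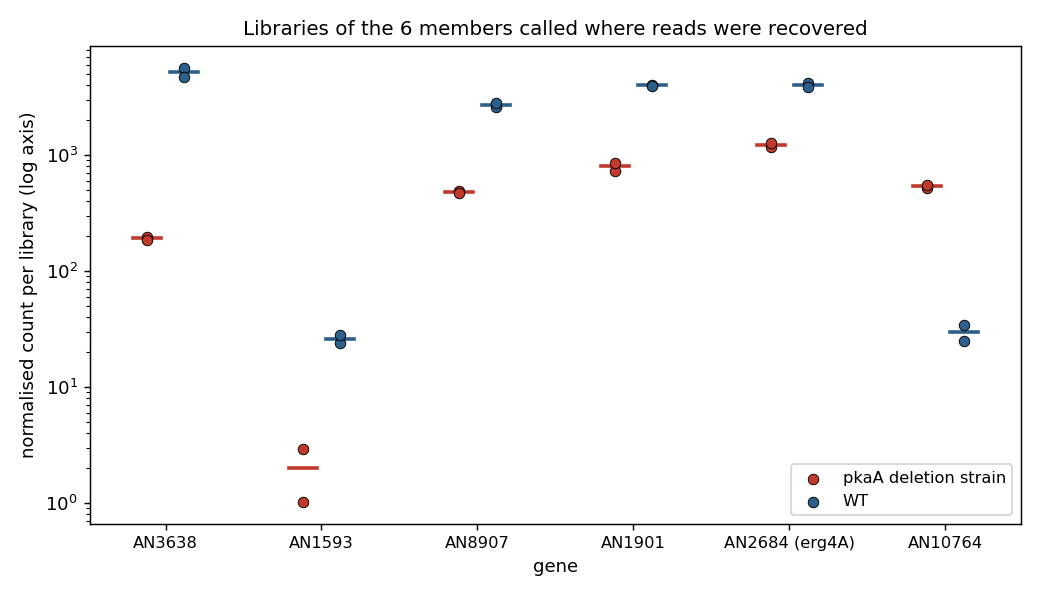
Normalised count of each library (vertical axis, logarithmic) for the 6 members called where reads were recovered in all 4 libraries. Red points are the 2 libraries of the Δ*pkaA* strain, blue points the 2 of the WT and bars the strain means. The libraries of the strains are apart for each of these genes, with the WT on top for all but AN10764.

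AN3638, AN8907 and AN1901 share their annotated step with other genes, and AN2684 shares the *erg4* symbol with AN10648, which the text of AN2684 does not tie to the same step. The expressed companions named next were at or above their WT level in the means. Of the other C-4 methyl oxidase genes, AN6973 had means of 9820.5 in the Δ*pkaA* strain against 8914 in the WT, and AN6506 had 5091 and 2697, a log2 ratio of 0.92. Per kb of gene span, introns included, AN3638 gave 25.1% of the summed level of the 5 oxidase genes in the WT and 1.21% in the Δ*pkaA* strain. The share of AN8907 was 18.1% and 4.21%, that of AN6506 11.8% and 29.3%, and that of AN6973 45.1% and 65.3%. The summed level of the 5 genes in the Δ*pkaA* strain was 0.761 of that in the WT.

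The 14-demethylases showed a like pattern. AN8283 had means of 8181 in the Δ*pkaA* strain against 5588 in the WT, a ratio of 1.46 that was not called. AN1901 gave 40.7% of the summed level per kb in the WT and 8.56% in the Δ*pkaA* strain, and AN8283 gave the rest. The sum over both genes was nearly equal, at 0.9495 of the WT. For AN2684 (*erg4A*), the companion is AN10648 (*erg4*), whose text names delta24(24-1) sterol reductase activity, the last step to ergosterol in yeast. AN10648 had 2109 and 2088 normalised counts in the Δ*pkaA* strain against 1382 and 995 in the WT, a log2 fold change of 0.84 (SE 0.16, adjusted p = 0.00355 in limma), below the 2-fold limit. It passed that limit at 1.08 when WT library a was left out. Of the summed level per kb, AN10648 held 24.2% in the WT and 65.0% in the Δ*pkaA* strain, so the order of the pair differed between the strains.

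The C-3 sterol dehydrogenase genes also differed in order between the strains, although neither was called. AN7575 had means of 3545 in the Δ*pkaA* strain against 1911 in the WT, and AN8032 had libraries of 1471 and 1315 against 2087 and 2058. AN7575 held 42.9% of the pair's level per kb in the WT and 67.5% in the Δ*pkaA* strain. The summed level was 1.18-fold higher. How the authors' counting treated reads that match more than 1 gene is not given in the sources used here, so levels of close isozymes carry that uncertainty.

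**Figure D4:**
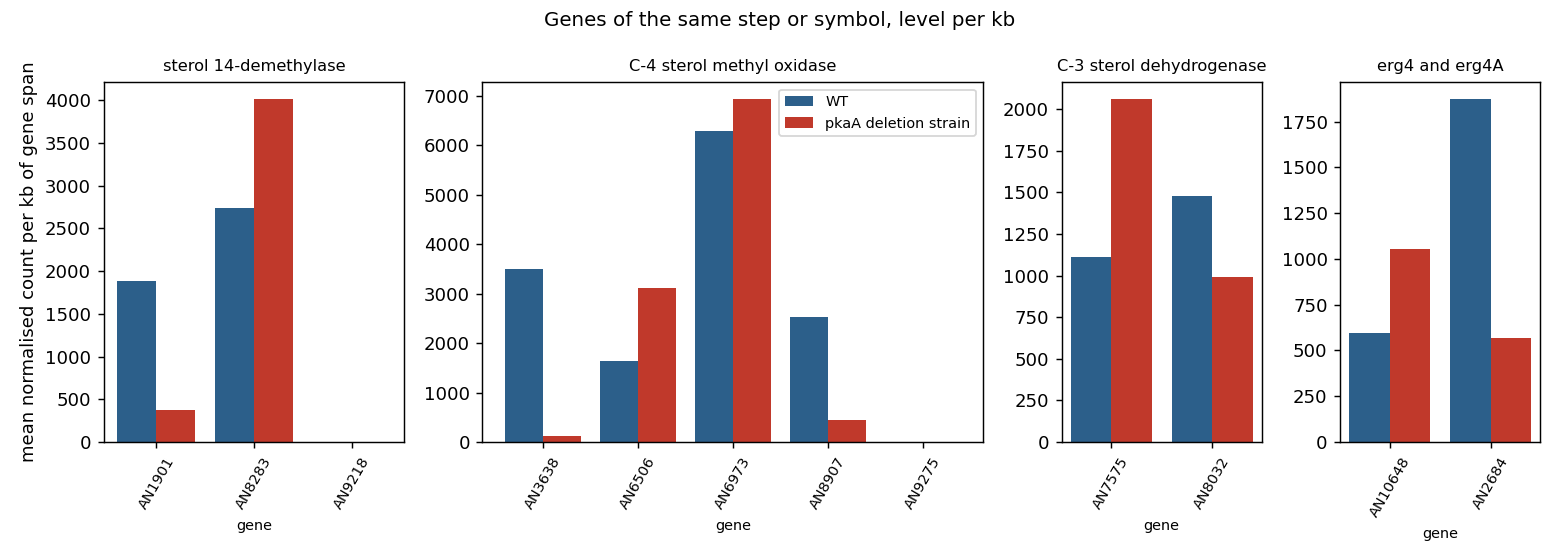
Mean normalised count per kb of gene span (vertical axes, linear from 0) of genes annotated to the same step, and of *erg4* and *erg4A*, which are paired by symbol, in the WT (blue) and the Δ*pkaA* strain (red), each bar a strain mean without an error bar. AN3638, AN8907, AN1901 and AN2684 are low in the Δ*pkaA* strain, while AN8283, AN6506, AN6973, AN7575 and AN10648 are at or above their WT level. AN9218 was listed at 0 and AN9275 near 0. The sterol isomerase, HMG-CoA reductase, cyclase and ceramide synthase genes are not shown.

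The steps of lanosterol conversion with a single well-expressed gene stayed within 2-fold. AN4094 (*erg24B*), a C-14 sterol reductase, had means of 4761 in the Δ*pkaA* strain against 2465 in the WT, a log2 ratio of 0.95. AN7146 (*erg6*), the sterol C-24 methyltransferase, had 10686 and 8758.5. AN4042 (*erg5*), the C-22 desaturase, had 11156 and 7216, a ratio of 1.55. The C-3 keto reductase gene AN5585 had libraries of 1080.4 and 1134 in the Δ*pkaA* strain against 1207 and 854 in the WT, which overlapped. AN0451 and AN7211, by contrast, are both expressed genes annotated to the sterol isomerase step, and neither was above its WT level in the means. Per kb, their sum in the Δ*pkaA* strain was 0.814 of that in the WT. AN0451 (*erg2*) was at 2378 and 2396, and AN7211 was lower at 915 and 907 against 1654 and 1576, a log2 fold change of -0.83 (SE 0.10, adjusted p = 4.05e-04 in limma) that did not reach 2-fold. AN0851 and AN9496, which carry a cholestenol delta-isomerase domain, were left out of that sum. Both were higher in the Δ*pkaA* strain, with log2 fold changes of 0.79 and 0.48 and neither called. Whether they act at the same step was not tested, so the step may hold higher genes too. The electron carriers and helpers AN0432, AN2069 and AN4939, which serve these oxidations, had log2 ratios between -0.33 and 0.30.

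Of 2 siderophore genes whose text also names ergosterol biosynthesis, AN10764 was the member with the highest ratio. Its orthologs act in the synthesis of triacetylfusarinine C, an iron-binding siderophore whose synthesis draws on mevalonate, and in the response to iron starvation. AN10764 had 523 and 554 normalised counts in the Δ*pkaA* strain against 34.5 and 24.99 in the WT. The strains were far apart and the log2 fold change was 4.15 (SE 0.22, adjusted p = 1.10e-05 in limma), 18.1-fold higher in the means. It is listed from base 1623698 to base 1624593 on the minus strand, on chromosome I in the RefSeq table. The other siderophore gene, AN0608, had overlapping libraries of 392.2 and 333 in the Δ*pkaA* strain against 441 and 349 in the WT.

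Among 14 genes of sterol modification, transport, binding and regulation, 1 was called higher and 1 lower. Of all genes tested, 14.8% were called higher and 14.4% lower, so these counts do not exceed the shares of all genes. AN6177, a putative flotillin ortholog of the sterol-rich domains of the plasma membrane, had a mean of 2431 in the Δ*pkaA* strain. Its WT libraries were at 219 and 314, far below that mean. The log2 ratio was 3.19, or 9.11-fold higher, with an adjusted p of 1.11e-05 to 1.70e-05 in limma over the divisions of reads. AN4601 (*atg26*), for a sterol 3-beta-glucosyltransferase that attaches glucose to ergosterol, had 1793 and 2092 in its Δ*pkaA* libraries and a mean of 6952 in the WT. It was 3.58-fold lower, with a log2 ratio of -1.84 and an adjusted p of 1.46e-05 to 8.11e-05 in limma. Between these extremes, the remaining 12 genes lay within 2-fold, from -0.68 for the sterol esterase gene AN1798 to 0.52 for AN5484. AN7661, whose orthologs bind sterol response elements and activate transcription, had means of 3251 and 4191, a log2 ratio of -0.37.

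In sphingolipid synthesis, 8 of 10 genes had a log2 ratio above 0, with a median of 0.51, and 1 was called higher. Of all genes, 49.6% had a log2 ratio above 0 and 14.8% were called higher, so the count of calls is close to that of all genes. At an unadjusted p below 0.05 in limma, 6 of the 10 were higher and 1 lower with either division of reads. Of all genes, 34.9% were higher at that limit with the even and 31.1% with the uneven division. The first enzyme, serine palmitoyltransferase (AN3728, *lcbA*), was nearly equal, with means of 6340 in the Δ*pkaA* strain against 5748 in the WT. Of the ceramide synthase genes, AN2464 had 4063 and 2880 and AN4332 had libraries of 1776 and 1865 against 1115 and 992. Summed per kb they were 1.50-fold higher in the Δ*pkaA* strain, with neither past 2-fold.

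The glucosylceramide branch was uneven. AN5688, whose orthologs methylate the sphingolipid long-chain base of glucosylceramide, had a mean of 6822 in the Δ*pkaA* strain. Its WT libraries were at 3071 and 2915, both below that mean. The gene was 2.28-fold higher, with an adjusted p of 3.15e-05 to 0.00220 in limma over the divisions of reads. The delta-4 desaturase gene AN4405 had 1214 and 1288 against 836 and 912, a log2 fold change of 0.52. The hydroxylase gene AN4592 had a log2 fold change of 0.15. AN8806, the ceramide glucosyltransferase that makes glucosylceramide, had 1367 and 1370.3 against 1873 and 1949, a log2 fold change of -0.48 (SE 0.10, adjusted p = 0.00471 in limma), and was the only one of these 4 genes with a log2 ratio below 0.

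On the inositol branch, AN4991, the inositol phosphorylceramide synthase and the target of aureobasidin A in yeast, had means of 5470.1 in the Δ*pkaA* strain against 2780 in the WT. At a log2 ratio of 0.98 it lay just inside the limit. AN6534, for the later mannosylinositol phosphorylceramide step, had 8373 and 5833, a ratio of 1.44, and the ceramide hydroxylase gene AN0918 had 2055 and 2165 against 2589 and 2383. Sphingolipid breakdown, with dihydrosphingosine-1-phosphate lyase (AN1989), dihydroceramidase (AN10452) and the hydrolase-domain gene AN2333, ranged from -0.41 to 0.30, and 0 of 3 were called. The 3 genes of fatty acid elongation with a sphingolipid term ranged from -0.08 to 0.35, and 0 of 3 were called. In both groups, limma gave an unadjusted p below 0.05 for 1 gene with the even and 0 with the uneven division of reads, where 69.2% and 61.8% of all genes were below that limit. AN5217, similar to Pil1, a protein of the eisosomes of the yeast plasma membrane that responds to long-chain bases, had means of 2982 and 6369. It was called lower, with a log2 ratio of -1.09 and an adjusted p of 5.38e-04 to 0.00227 in limma.

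Beyond the 12 called genes, 13 members had an adjusted p below 0.01 in limma with both divisions of reads but differed less than 2-fold, 8 higher and 5 lower. Of all 9455 genes, 12.7% did so, 6.49% higher and 6.25% lower. AN4991, AN4094, AN6506 and AN7575 were the highest of these. Between the libraries of a strain, the median absolute log2 difference of members with a mean of at least 100 was 0.10 in the Δ*pkaA* strain against 0.15 in the WT. Over all genes it was 0.12 and 0.14. These values cover 29 members and 5187 genes in the Δ*pkaA* strain and 51 members and 6857 genes in the WT. The strains therefore do not cover the same genes. Taking the most even division can lower such differences.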

How the data were processed

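Alignment by the authors was with bowtie2 against the AspGD genome, counting with HT-Seq and testing with DESeq. Program versions, the genome release and how the 2 technical replicates of a sample were joined are not given in the sources. What the authors deposited is a signal, namely strain means of normalised counts for each gene. Their fold changes, p-values and q-values were not used, and neither was a further deposited table, whose sides the sources used here do not assign to libraries.

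A count test had been planned for counts per sample, but the deposited values are means. Each mean was solved as whole reads in 2 libraries with Δ*pkaA* size factors of 1.02 and 0.982, WT size factors of 1.04 and 0.960 and a tolerance of 6e-05, taking the most even division. Reads were recovered for 7564 and 9315 genes. limma used log2(value + 1) and a mean-variance trend for genes with an average of at least 10. The recovered libraries match the labelled samples in number only, and p-values measure only the spread between them. The range limit assumes libraries within 1.5-fold. In the upper part of the range, 0.211% of Δ*pkaA* means and 1.65% of WT means exceeded that. Taking the most even division holds these shares down, so they cannot show whether the assumption is met.

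Named with values were called members, unrecovered members past 2-fold with an average of at least 100, enzymes of the ergosterol and core sphingolipid pathways, and the extremes of other roles. Genes named beyond that rule (AN7661, the siderophore gene AN0608, the neighbours of AN1593 and related genes) were chosen after their values were seen. Members and lists were chosen with earlier results of these data known. Symbols and chromosomes were looked up in the RefSeq genes of ASM1142v1, which matched all 69 members and gave 19 a symbol. Starts and stops are the authors'. Alternatives were other fold limits, filters, pseudocounts, scalings, p limits, no trend, leaving out each library, and divisions of reads, the last chosen after seeing the data. The test ran in limma 3.58.1 under R 4.3.3. Reads were recovered in Python 3.11.15 with pandas 2.3.3 and NumPy 2.4.6, intervals came from SciPy 1.17.1, and plots from matplotlib 3.10.9.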

Additional observations from a re-analysis of the deposited data

How the results depend on the processing

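Of the members at least 2-fold higher in the means, 5 as reported, the count was 14 at 1.5-fold, 2 at 4-fold, 3 with an average of at least 1000, 8 with the same sum of means and 3 among genes of a biosynthetic step. Of those lower, 8 as reported, it was 12 at 1.5-fold and 4 at 4-fold. For limma on recovered reads, 1 higher became 5 with no fold limit and 4 at 1.5-fold, and 5 lower became 9 with no fold limit and 7 at 1.5-fold. Leaving out each library in turn gave 1 to 2 higher and 5 lower each time, the additional gene being AN10648 (log2 fold change 1.08 without WT library a). With all genes, both divisions of reads gave 4 higher and 8 lower. Both divisions and the average of at least 1000 were added after seeing the data. Signs turned for uncalled genes near 0: with the same sum of means, 6 log2 ratios of the means were above 0 in place of below, for AN2069 (0.0040), AN5861 (0.0050), AN4923 (0.017), AN0451 (0.070), AN1713 (0.070) and AN2877 (0.080), and AN5000 was at -0.014 when centred on the median of genes averaging at least 100. In limma, AN5868 was at -0.028 when centred on the library medians and, over the fits without single libraries, AN5000 (-0.127 to 0.12), AN5585 (-0.125 to 0.374), AN0608 (-0.288 to 0.051), AN1713 (-0.106 to 0.077) and AN8522 (-0.844 to 0.61). No paired analysis was possible because nothing ties the recovered libraries to numbered samples. Depth limits AN1593, AN8249, AN8522 and AN9275, with at most 52 reads in a strain. A fit without 1 library assumes that the lone library varies like the other genes' libraries.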

Other observations

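Some genes near these pathways fall outside the rule on function text. No function text carried both P450 and a sterol word, and none named a sterol regulatory element binding protein. A search of words does not show that such genes are absent, and enzymes whose text does not say P450 were kept as members. The member AN7661 has orthologs that bind sterol response elements. Of 6 genes described by other sphingolipid words, 5 had a log2 ratio above 0 and 1 was called higher. Of all genes, 49.6% had a log2 ratio above 0 and 14.8% were called higher, so the count of calls is close to that share. The called gene was AN1522, whose orthologs act in sphingoid catabolism. AN1522 had means of 2491 in the Δ*pkaA* strain against 1023 in the WT (log2 ratio 1.28, adjusted p = 1.88e-04 to 3.24e-04 in limma over the divisions of reads). The long chain base kinase gene AN1176 had 1341 and 1518 normalised counts against 886 and 855. AN4912, with a lipid translocation term, was lower, at 1113 and 947 against 2058 and 1882, inside 2-fold. For serine palmitoyltransferase, the subunit gene AN1102 (*lcb2*) had means of 8820 and 7011.

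Of 10 isoprenoid genes, which draw on the same farnesyl and geranyl units, 1 was called. AN3747, whose orthologs attach geranylgeranyl groups to Rab proteins, had 1357.9 and 1415 in the Δ*pkaA* strain against 3394 and 3337 in the WT, with a log2 fold change of -1.28 (SE 0.10, adjusted p = 5.76e-05 in limma). Of 14 fatty acid synthesis genes, 1 was called higher and 2 lower, and of 152 tested phospholipid genes, 20 were called higher and 19 lower. Of all genes tested, 14.8% were called higher and 14.4% lower, and the phospholipid counts are near those shares. The medians of these lists were -0.21, 0.00 and 0.02 on the log2 scale, beside -0.01 for all genes. AN1409 (*erg10B*) is a putative acetyl-CoA C-acetyltransferase whose text gives a predicted role in fatty acid metabolism. Its place at the entrance of the mevalonate pathway rests on the symbol only. AN1409 had means of 10784 and 6797, a log2 ratio of 0.67.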
